A study of Mus musculus with 3 samples.

Results

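Genes of the DNA damage response and repair are described here by the open chromatin found at them in cells of the mouse molar. The 29 genes were taken by name from RefSeq's GRCm38 annotation, out of 21887 protein-coding genes on the chromosomes used, and all 29 were found there. Cells from the apical part of C57BL/6 first molars were profiled by ATAC-seq, an assay whose transposase tags the stretches of DNA that are not packed away. There were 2 control libraries (genotype Arid1a fl/fl) and 1 mutant library (genotype Gli1-CreER;Arid1a fl/fl), all from mice that carried the floxed Arid1a allele, received tamoxifen at postnatal day 3.5 and were sampled at postnatal day 7.5. Gli1-CreER deletes Arid1a, which encodes a DNA-binding component of SWI/SNF remodellers, only in cells that express Gli1 and in their descendants, so a mutant library can hold undeleted cells, and 5000 cells went into each library. The values used here are pooled over the libraries. They are 13500 windows of 201 bp and 5753 matches to the binding motif of the zinc finger factor Plagl1 within them. Mutant and control could therefore not be compared, the read depth at a window is unknown, and no value has a replicate error. Every count below is a description without a p-value. A gene without a window may still be open, and a motif match is a stretch of sequence, not a measurement of binding.

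Cells answer DNA damage through several linked pathways. Breaks in both strands are sensed by the MRN complex and the kinase Atm, stalled replication forks by the kinase Atr, and both pass the signal to checkpoint kinases that hold the cell cycle. Breaks are repaired by homologous recombination, which copies an intact sister chromatid and works in dividing cells, or by end joining, which works throughout the cycle. Crosslinks between strands need the Fanconi anaemia pathway, and damaged or mispaired bases are removed by excision and mismatch repair.

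The sequences that carry the motif results are shown first. Of the 29 genes, 7 had a Plagl1 motif site in a window at a gene end, with 9 sites between them, and Ercc1 had 1 in a window inside the gene. A window counted as being at a gene end when its midpoint lay within 1 kb of either end of the annotated gene. The sites are written 5′ to 3′ on the motif strand, and capitals mark positions 4 to 7 of the 10 bases, the G-rich core.
Brca2: cgtGAGGccg
Fanca first site: tcgGAGGccc
Fanca second site: cccGGGGccc
Fancg: cagGAGGcca
Lig4 first site: tgtGGGGgcc
Lig4 second site: cgaGGGGccg
Xrcc1: ggaGAGGccc
Parp1: caaGAGGcgc
Msh6: cgtGAGGcct
Ercc1: ccaGGGGcac
Every site shown has GAGG or GGGG as its core. All were found as matches to 1 motif, so a shared core is largely set by that search. The 9 sites at gene ends lay on chromosomes 1 (Parp1, 180569086 to 180569095), 4 (Fancg, 43010388 to 43010397), 5 (Brca2, 150522729 to 150522738), 7 (Xrcc1, 24547113 to 24547122), 8 (Fanca, 123318497 to 123318506 and 123318505 to 123318514, and Lig4, 9977790 to 9977799 and 9977903 to 9977912) and 17 (Msh6, 87975225 to 87975234). All positions are in mm10, and the sites read as shown on the plus strand except those of Parp1, Msh6 and Ercc1 and the second of Lig4, which read on the minus strand. The pair of sites at Fanca overlapped at their ends, so they are not separate stretches of sequence. The site of Ercc1, on chromosome 7 at 19345351 to 19345360, lay in a window whose midpoint was 1242 bp from the nearer gene end.

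Repair genes had open chromatin at their ends more often than protein-coding genes in general. A window was found at a gene end for 26 of the 29 (89.7%), where 46.6% of all protein-coding genes had one. The genes without one were Fancc, Xrcc6 and Ercc1, each with a window inside the gene, so that all 29 had a window in the gene or within 1 kb of it, against 53.5% of protein-coding genes. Each of the 26 had exactly 1 window at its ends, with its midpoint 5 to 943 bp away, and in 17 of them that midpoint lay inside the gene. Near the limit of 1 kb, Trp53bp1 was just inside at 943 bp and Ercc1 just outside at 1242 bp. The 29 genes had been picked with earlier results of these data known. A further 97 repair genes, listed by pathway from general knowledge, had a window at an end in 90 cases (92.8%). That list too was made with earlier results of these data known. Neither list was tested against other widely expressed genes.

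Short lists of cell type markers were set beside the 46.6% of all protein-coding genes that had a window at an end. The lists are too short for their shares to identify the cells. Dental mesenchyme markers had a window at a gene end in 8 of 13 cases (among them Barx1, Lrig1 and Msx1), dental epithelium markers in 1 of 8 (Ambn), immune markers in 1 of 7 (Cd3d), endothelial markers in 3 of 5 (Erg, Kdr and Tie1), glial and neuronal markers in 2 of 5 (Map2 and Snap25) and pericyte and smooth muscle markers in 1 of 4 (Notch3). Which cells contributed the windows at the repair genes was not tested.

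Windows were also placed against RefSeq transcription start sites. A start was on hand for 26 of the 29 genes, all but Nbn, Rad50 and Fancd2. Every one of these 26 had a window within 1 kb of a start, against 50.7% of protein-coding genes with a start. That includes the 3 genes without a window at a gene end, whose annotated ends lay 1242 bp (Ercc1), 23854 bp (Xrcc6) and 65869 bp (Fancc) from the window: the midpoint lay 322 bp downstream of the start of Fancc, 138 bp upstream of that of Xrcc6 and 238 bp downstream of that of Ercc1. The window covered the start base itself in 12 of the 26 genes (46.2%), close to the 48.7% among all 8860 protein-coding genes with a window at a start. The midpoint was upstream in 11 genes (42.3%) and downstream in 15, close to the 39.3% upstream among those 8860 genes. The farthest were Brca1 at 528 bp upstream and Xrcc1 at 406 bp downstream.

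**Figure D1:**
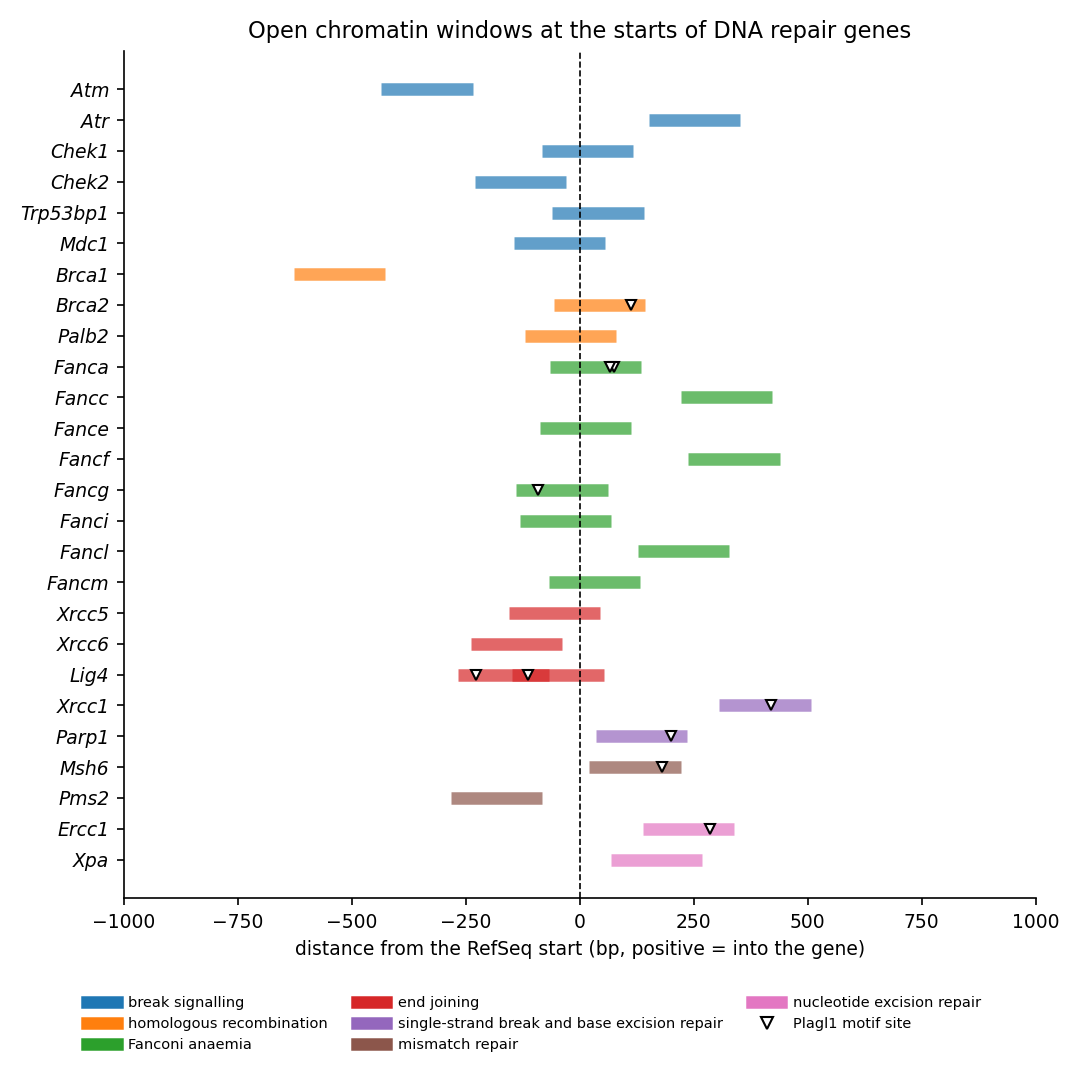
Windows within 1 kb of a RefSeq start (bars of 201 bp, coloured by pathway) for 26 repair genes, by distance from the start in bp, with Plagl1 motif sites as triangles; Lig4 has 2 starts, each with its own window drawn from its own start. In 12 genes the nearest window crosses the start, marked by the dashed line.

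Among the genes that sense and signal breaks, all 8 had a window at a gene end and none held a motif site. Over all protein-coding genes 46.6% had a window there, and 33.4% of those with one had a site. Of the 16 further break signalling genes, described below, all had a window and 5 a site. Atm, the kinase that responds to double-strand breaks, had its window on chromosome 9 at 53536906 to 53537106, upstream of the gene by 178 bp. Atr, the kinase of stalled forks, had one at 95857748 to 95857948 on the same chromosome, 251 bp into the gene and with a GC content of 76.6%. Chek1, the checkpoint kinase downstream of Atr, had one that crossed its start, with the midpoint 17 bp into the gene (GC content 59.7%). The window of Chek2, the kinase downstream of Atm, was among those of lowest GC content, at 55.7%. Mdc1, the scaffold that binds phosphorylated histone H2AX beside breaks, had a window 45 bp upstream of its start (GC content 58.7%). Nbn and Rad50, parts of the MRN complex, had windows 635 and 150 bp from a gene end, with GC contents of 72.1% and 65.7%.

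Trp53bp1, which protects broken ends from resection, stood apart in this group with 3 windows in the gene. The one that counted as being at a gene end lay 24004 bp upstream of the RefSeq start used here, with 5 CpG per 100 steps between neighbouring bases. A second, 40 bp downstream of that start on chromosome 2 at 121271267 to 121271467, had 9 CpG per 100 steps. The third lay at the end of Map1a, a microtubule-associated protein gene that overlaps it.

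The genes of homologous recombination differed among themselves in composition and in motif sites. Brca1, which directs broken ends to recombination, had a window 528 bp upstream of its start on chromosome 11 at 101552383 to 101552583, of the lowest GC content of all 26 (53.2%) and without a site. Brca2, which loads the recombinase onto single-stranded DNA, had a window across its start on chromosome 5 at 150522565 to 150522765, with a GC content of 76.1%, 17 CpG per 100 steps and 1 site of score 5.85. The score is HOMER's log-odds of a match, and ran from 5.51 to 7.74 over all sites with a median of 5.94. Palb2, the partner that links Brca1 to Brca2, had a window on chromosome 7 at 122132867 to 122133067, with its midpoint 21 bp upstream of the start and no site. Brca1 and Brca2 thus lay far apart in composition.

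Of the 9 Fanconi anaemia genes, 8 had a window at a gene end and 2 of those held a site. Over all protein-coding genes 46.6% had such a window, and 33.4% of those with one had a site. Fanca, of the core complex that ubiquitinates Fancd2 and Fanci, had a window on chromosome 8 at 123318442 to 123318642 with 2 sites, of scores 6.17 and 5.52. Fancg, another core subunit, had the highest-scoring site of the 29 genes (6.54), 91.5 bp upstream of its start. Fancf, also of the core complex, had the richest window of the 26, with a GC content of 81.1% and 20 CpG per 100 steps, and no site. Fance and Fancl, of the core, and Fancm, which anchors it to DNA, had windows without a site, as had Fancc, another core subunit, inside the gene. Fancl, the ubiquitin ligase subunit, had its window 228 bp downstream of the start. Fancd2 and Fanci, the pair that is ubiquitinated, had windows 95 and 5 bp from a gene end, also without a site. Fancm had 2 windows: one 33 bp downstream of its start, and one at the gene's outer end, 1734 bp upstream of that start.

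End joining, single-strand break repair, mismatch and nucleotide excision repair gave the rest. Xrcc5, a subunit of the Ku complex that binds broken ends, had the window of fewest CpG among the 26, with 4 per 100 steps and a GC content of 56.2%. Xrcc6, the other Ku subunit, had its window on chromosome 15 at 82016131 to 82016331. Lig4, the ligase that seals the ends, had 2 sites of scores 6.24 and 5.67 in its window on chromosome 8 at 9977747 to 9977947, and a second window without a site 48 bp upstream of its other start. Parp1, which detects nicks, had 1 site of score 5.74 (window on chromosome 1 at 180568926 to 180569126), and Xrcc1, the scaffold it recruits, had 1 of score 5.65 (window on chromosome 7 at 24547005 to 24547205). Msh6, which recognises mismatched bases, had 1 site of score 6.46 in its window on chromosome 17 at 87975071 to 87975271. Pms2, of the complex that cuts the mismatched strand, had a window without a site 183 bp upstream of its start. Xpa, which verifies bulky lesions, had a window of 74.1% GC and 15.5 CpG per 100 steps without a site, and Ercc1, of the nuclease that cuts beside such lesions, had 1 site of score 5.53 in its window inside the gene.

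Plagl1 motif sites were about as frequent at the repair genes as elsewhere. A site was present in 7 of the 26 genes that had such a window (26.9%), against 33.4% of the protein-coding genes that likewise had one, and in 27 of 90 (30%) among the further repair genes. With shared windows left out the order turned, to 35.7% of the repair genes against 33.1%. Sites went with base composition. A logistic model with GC and CpG together was fitted over all 9078 windows near a protein-coding gene end. With CpG held fixed, the odds ratio was 2.53 (95% interval 2.26 to 2.82) for a difference of 10 percentage points in GC. With GC held fixed, the odds ratio for a difference of 5 CpG per 100 steps was 0.441 (interval 0.394 to 0.494). Windows are not replicates. From the composition of their windows alone the model gave 7.34 repair genes with a site, beside the 7 counted. For the 8 break signalling genes it gave 2.22 beside 0 counted, and for the other 18 genes 5.12 beside 7 counted. This split by pathway was read off after the counts were known. The median best score over the 7 genes was 6.17, against 5.99 for all protein-coding genes with a site.

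**Figure D2:**
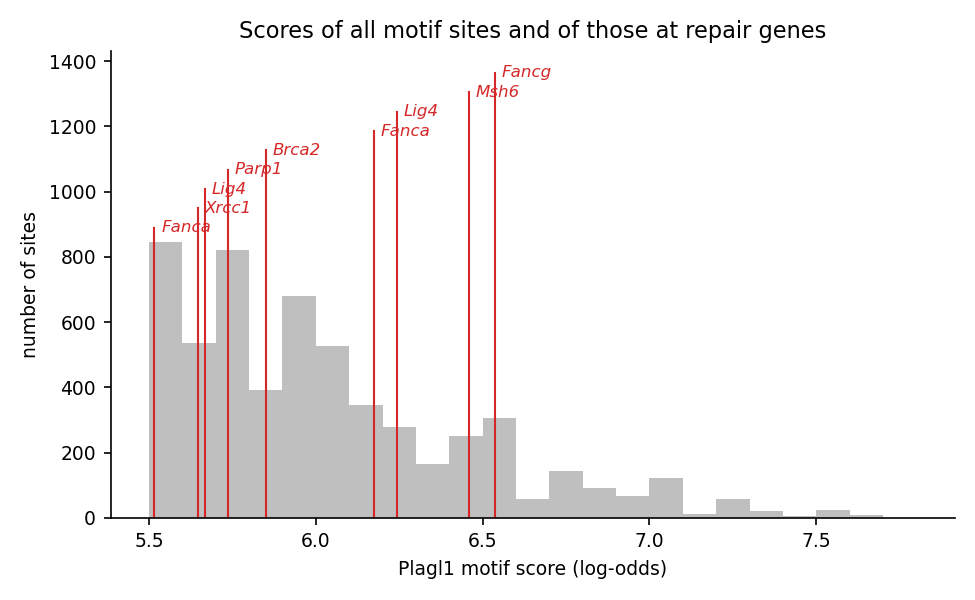
Number of Plagl1 motif sites by log-odds score in steps of 0.1 (grey bars, 5753 sites), with the 9 sites at ends of repair genes as red lines. The lines run from 5.52 (Fanca) to 6.54 (Fancg), and none of the 9 scored higher.

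The windows of the repair genes were somewhat poorer in G and C than those of other genes. Their median GC content was 64.7% (range 53.2 to 81.1), against 68.2% for the 9064 windows at the ends of other protein-coding genes, whose quartiles were 62.7% and 73.6%. GC content was under 60% in 7 of the 26 and over 70% in 6. The other genes' windows were not counted at these limits. The median number of CpG per 100 steps was 8.75 against 10. Relative to what their G and C content would give if both were evenly mixed, the median CpG ratio was 0.919 for the repair genes and 0.860 for all protein-coding genes. The median GC content of the repair genes thus lay between the quartiles of the other genes' windows.

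**Figure D3:**
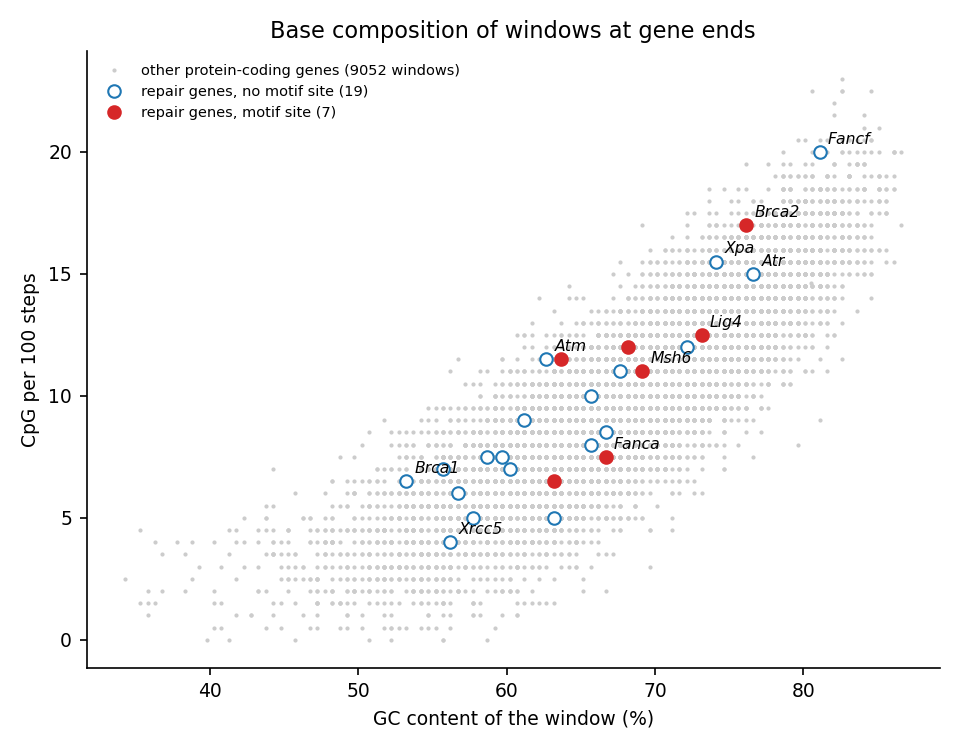
CpG per 100 steps against GC content (%) of each window at a gene end, in grey for 9052 windows at other protein-coding genes (those shared with a repair gene left out) and as circles for the 26 repair genes, filled where the window holds a motif site. The repair genes spread from Brca1 (53.2% GC) to Fancf (81.1% GC), and those with a site lie among those without.

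Repair genes often shared their window with a neighbouring gene. Of the 26, 12 (46.2%) had a window that also lay within 1 kb of an end of another protein-coding gene, where 27.8% of all protein-coding genes with a window did. The further repair genes did so in 42 of 90 cases (46.7%). In 7 of the 12 the window lay within 1 kb of the starts of both genes, on opposite strands. These were Atm with Npat, a coactivator of histone genes, Atr with 1700065D16Rik, Brca1 with Nbr1, an autophagy receptor, Palb2 with Dctn5, a dynactin subunit, Fancf with Gas2, a growth arrest gene, Lig4 with Abhd13, and Pms2 with Aimp2, a scaffold of tRNA synthetases. In another 2, Chek2 with Hscb and Fancd2 with Emc3, a start was used for 1 of the genes only. In the remaining 3, Fanci with Rlbp1, Fancm with Fkbp3 and Xrcc1 with Pinlyp, the window lay near an annotated end of both genes. For 1 gene of each pair (Rlbp1, Fancm and Pinlyp) it was more than 1 kb from any start used. That end can still be the upstream one, as it was for Fancm. A shared window cannot be assigned to the repair gene alone. How often shared windows of all protein-coding genes lie at the starts of both genes was not counted.

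Divergent starts were counted from the annotation alone, without the windows. Of the 26 repair genes with a start, 8 (30.8%) had a divergent start of another protein-coding gene within 1 kb, where 8.48% of all protein-coding genes with a start did. Among genes that also had a window at an end the counts were 7 of 23 (30.4%) and 16.3%. The further repair genes had such a neighbour in 25 of 73 cases (34.2%). The gaps between the starts ran from 37 bp (Lig4 and Abhd13) to 694 bp (Xrcc1 and Pinlyp), with 80 bp for Atr, 95 bp for Palb2, 149 bp for Xrcc6 with Desi1, 152 bp for Brca1, 162 bp for Pms2 and 376 bp for Atm. In 7 of these 8 pairs a window lay within 1 kb of both starts. This count was largely set in advance, since all 26 genes had a window within 1 kb of a start and the gaps were short. It was not made over all divergent pairs.

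**Figure D4:**
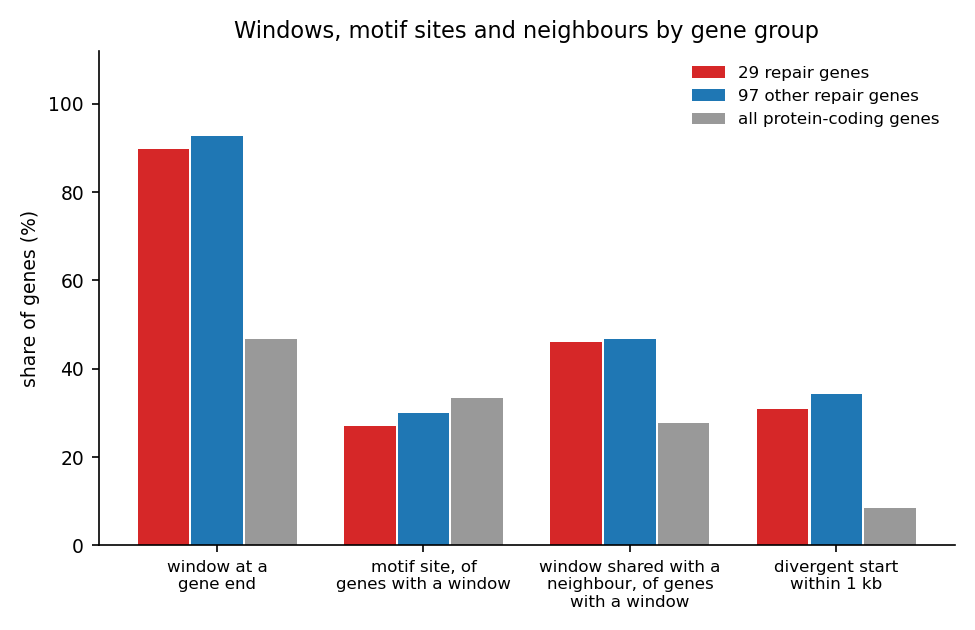
Share (%) of all genes of a group with a window at a gene end, of its genes with such a window that have a motif site in it or share it with a neighbour, and of its genes with a start that have a divergent start within 1 kb, for the repair genes (red), the further repair genes (blue) and all protein-coding genes (grey). The red bars stand at 89.7%, 26.9%, 46.2% and 30.8% and the grey bars at 46.6%, 33.4%, 27.8% and 8.48%, and for motif sites the order turns when shared windows are left out (35.7% against 33.1%).

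Promoter sequences of the genes show how sites and starts lie together. They are RefSeq sequences of GRCm38.p6, from 250 bases before the start to 50 bases into the gene, written 5′ to 3′ on the gene's strand. The promoter of Fancg is shown for the highest-scoring site and that of Lig4 for its pair of sites beside a divergent start, with the Plagl1 sites in capitals. Fancg lies at chr4:43010252-43010551 and Lig4 at chr8:9977631-9977930, both on the minus strand.
Fancg: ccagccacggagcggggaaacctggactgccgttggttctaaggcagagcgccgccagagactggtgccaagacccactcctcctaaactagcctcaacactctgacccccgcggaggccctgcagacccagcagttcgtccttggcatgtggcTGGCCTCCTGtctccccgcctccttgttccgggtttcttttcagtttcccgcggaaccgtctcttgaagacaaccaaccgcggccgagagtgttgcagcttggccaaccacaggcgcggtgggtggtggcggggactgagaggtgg
Lig4: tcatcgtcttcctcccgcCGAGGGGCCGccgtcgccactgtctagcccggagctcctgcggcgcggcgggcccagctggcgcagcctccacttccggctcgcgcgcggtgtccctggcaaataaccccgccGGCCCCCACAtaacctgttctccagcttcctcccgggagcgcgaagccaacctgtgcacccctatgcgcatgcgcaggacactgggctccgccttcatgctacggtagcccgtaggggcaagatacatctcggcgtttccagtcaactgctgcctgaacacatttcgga
The window covered 189 of the 300 bases shown for Fancg and 184 of those for Lig4. No other promoter of the repair genes held a deposited site, since the sites of Brca2, Fanca, Xrcc1, Parp1, Msh6 and Ercc1 lay more than 50 bases into the gene.

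Short promoter words of common regulators were counted on both strands in these sequences. The words were CCAAT (bound by NF-Y), GGGCGG (Sp1), CCGGAAG (ETS factors), the palindromic NRF1 word, TTTGGCGC, TTTCCCGC and TTCCCGCC (E2F factors, which drive genes of S phase), TTTGAA (the cell cycle homology region), AAGATGGCG (YY1) and TATAAA (the TATA box). TTTCCCGC and TTCCCGCC can overlap by 7 bases. The 26 genes with a start had 27 promoters, since Lig4 had 2, and the shares beside them come from all 32851 promoters in the table and from the 10201 promoters of protein-coding genes with a window at an end.

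An E2F word, TTTCCCGC, had the largest ratio to its share of all promoters among the words found in the 27. It was found in 6 of 27 (22.2%), against 1.07% of all promoters and 2.1% of those of genes with a window. The further repair genes had it in 2 of 85 (2.35%). TTCCCGCC was found in 4 of 27 (14.8%), against 2.19% and 4.37%, and TTTGGCGC in 0 of 27, against 0.514% and 1.02%. Among the further repair genes TTCCCGCC stood in 8 of 85 (9.41%) and TTTGGCGC in 2 of 85 (2.35%). At least 1 of these 3 words stood in 8 of 27 promoters (29.6%), those of Brca2, Chek1, Chek2, Fancg, Fancm, Mdc1, Msh6 and Xrcc6. That compares with 3.21% of all promoters, 6.28% of those of genes with a window and 11 of 85 (12.9%) of the further repair genes. The 6 matches to TTTCCCGC are shown in capitals with 12 bases on either side, on the strand where the word reads as written, chosen after this share was seen.
Brca2: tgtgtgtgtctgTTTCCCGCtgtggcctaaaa
Chek2: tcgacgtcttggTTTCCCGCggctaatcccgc
Fancg: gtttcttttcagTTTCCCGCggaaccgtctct
Mdc1: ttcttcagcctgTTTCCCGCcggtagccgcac
Msh6: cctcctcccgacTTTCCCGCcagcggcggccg
Xrcc6: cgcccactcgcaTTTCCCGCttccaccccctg
These stretches lie at chr5:150522441-150522472 (Brca2), chr5:110839819-110839850 (Chek2), chr4:43010334-43010365 (Fancg) and chr15:82016311-82016342 (Xrcc6) on the minus strand, and at chr17:35841470-35841501 (Mdc1) and chr17:87975053-87975084 (Msh6) on the plus strand, in GRCm38.p6. The word lay 52 bases upstream of the start of Fancg, 46 upstream of that of Xrcc6, 16 upstream of that of Mdc1, 152 upstream of that of Chek2 and 168 upstream of that of Brca2, and 16 bases into Msh6 with the start base counted as 1. In Mdc1 and Msh6 the next base was C, so that TTCCCGCC matched too. A match is a description of letters in the sequence, and E2F binding was not measured.

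CCAAT was found in 16 of 27 promoters (59.3%), against 37.4% of all and 39.4% of those of genes with a window, and in 44 of 85 (51.8%) of the further repair genes. GGGCGG was also found in 16 of 27 (59.3%), above the 35.7% of all promoters and below the 66.5% of those of genes with a window. CCGGAAG was found in 8 of 27 (29.6%), from 7 genes since both promoters of Lig4 held it, against 8.86% and 19.2%. The further repair genes had CCGGAAG in 20 of 85 (23.5%) and GGGCGG in 58 of 85 (68.2%). The NRF1 word was found in 1 of 27, the Lig4 promoter shown above, against 0.971% and 2.29%, and in 3 of 85 (3.53%) of the further repair genes. TATAAA was found in 2 of 27 (7.41%), at Atm and Brca2, against 13.6% and 6.54%. At Atm it was read on the other strand and began at the start base, and at Brca2 it lay 191 bases upstream. Whether either acts as a TATA box was not tested. The further repair genes had the word in 3 of 85 (3.53%). TTTGAA was found in 0 of 27, against 17.9% and 11.4%, and AAGATGGCG in 0 of 27, against 1.4% and 3.28%.

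The promoters of Brca1 and Msh6 show few and many of these words, and that of Fancl held none. Brca1 (chr11:101551906-101552205, minus strand) held a single CCAAT, 86 bases upstream of the start, and none of the other words. Msh6 (chr17:87974800-87975099, plus strand) held 5 copies of GGGCGG, 1 CCAAT read on the other strand and the E2F words. Capitals mark the matches.
Brca1: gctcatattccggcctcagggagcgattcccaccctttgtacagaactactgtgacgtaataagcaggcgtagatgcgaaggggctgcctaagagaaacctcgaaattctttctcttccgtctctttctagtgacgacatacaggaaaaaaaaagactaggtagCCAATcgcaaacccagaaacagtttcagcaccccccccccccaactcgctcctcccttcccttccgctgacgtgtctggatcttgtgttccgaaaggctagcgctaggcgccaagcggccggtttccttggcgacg
Msh6: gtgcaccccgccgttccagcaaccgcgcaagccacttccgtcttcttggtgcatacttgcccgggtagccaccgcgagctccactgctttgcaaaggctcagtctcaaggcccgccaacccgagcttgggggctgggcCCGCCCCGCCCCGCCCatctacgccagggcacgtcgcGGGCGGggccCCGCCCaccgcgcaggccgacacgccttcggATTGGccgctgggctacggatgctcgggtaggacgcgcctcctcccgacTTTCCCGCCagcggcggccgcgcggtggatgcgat
The window of Brca1 did not reach into the sequence shown, and that of Msh6 covered its last 29 bases.

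**Figure D5:**
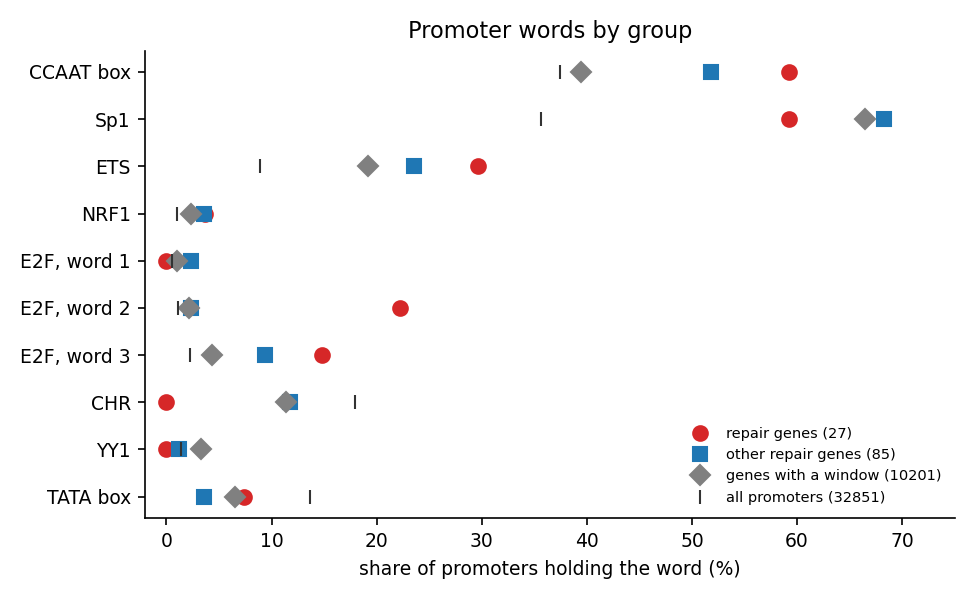
Share of promoters (%) that hold each word on either strand, for 27 promoters of the repair genes (circles), 85 of further repair genes (squares), 10201 of genes with a window (diamonds) and all 32851 (vertical ticks); E2F words 1 to 3 are TTTGGCGC, TTTCCCGC and TTCCCGCC. The circle for E2F word 2 stands at 22.2% where the other groups lie between 1.07% and 2.35%.

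The further repair genes are given by pathway, with counts too small to set one pathway apart from another and no test between them. Over all protein-coding genes 46.6% had a window at an end, and the share with a site was 33.4% among those. All 16 break signalling genes had a window at an end and 5 of them a site, led by Timeless, a protector of replication forks, with a best score of 6.51 and Clspn, the adaptor between Atr and Chek1, with 6.26. Of the 20 homologous recombination genes, 18 had a window and 10 of these a site, led by the Brca1-associated helicase gene Brip1 (6.20) and the topoisomerase gene Top3a (6.19). Of the 12 Fanconi genes, 11 had a window and 1, Faap24, a site (5.69). End joining had a window in 7 of 8 and a site in 1, Nhej1, a stimulator of Lig4 (6.60). Base excision and single-strand break genes had a window in 17 of 19 and a site in 4, led by the ligase Lig3 and the nick sensor Parp2 (6.46 each). All 5 mismatch repair genes had a window and 0 a site. Nucleotide excision genes had a window in 16 of 17 and a site in 6, led by Ddb1, of the complex that finds ultraviolet lesions (6.82), and the damage sensor Xpc (6.13).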

How the data were processed

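ATAC-seq of 3 mouse molar libraries was processed by the authors with cutadapt 1.18, FastQC 0.11.8, MACS2 2.1.1, Bowtie2 2.3.5, Picard, edgeR and bedtools on mm10, per the submitters' processing notes. Per the file headers, HOMER's annotatePeaks scanned the centres of a union list of peaks for 1 motif, without gene annotation. The sources used here do not say how that list was made from the libraries. The deposited GC value is the fraction of a window's bases that are G or C, and the deposited CpG value is the number of CpG per step between neighbouring bases (200 steps), both named so per the file headers and multiplied by 100 here. The deposited score is a log-odds score of each site, whose log base the file does not state. Each of the 5753 annotated sites matched an entry of the site list.

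Window midpoints were set against gene ends in a RefSeq gene table (GRCm38.p6, the same assembly as mm10) and against starts from its promoter table. As a check of coordinates, GC and CpG counts recomputed from promoter sequence equalled the deposited ones, within 0.01, in 1670 of 1670 pairs of a promoter and a window inside it. No test of lists was made: lists are described beside all protein-coding genes. The logistic model and the search scripts were tested on simulated data. The 29 genes and the lists were chosen with earlier results of these data known. All 29 genes could be named. Of the 97 further repair genes, the rule named up to 2 per pathway with the highest site score and those with no window assigned, and of markers up to 3 per list with a window, in alphabetical order. A result that this rule would name is not reported here. Neighbours that share a window were named throughout, while divergent starts, any E2F word together and the split by pathway in the model were added after the data were seen. Alternatives changed the distance, the windows, the sites, the model and the background. Exons and introns were not used here. Software was matplotlib 3.10.9, statsmodels 0.14.6, pandas 2.3.3, scipy 1.17.1, numpy 2.4.6 and Python 3.11.15.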

Additional observations from a re-analysis of the deposited data

How the results depend on the processing

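The share of repair genes with a window at a gene end (89.7%) was 79.3% within 500 bp, 93.1% within 3 kb and 96.6% within 10 kb, against 42.7%, 51.6% and 58.0% of protein-coding genes. It was 100% when the gene body was counted, and 100% at starts alone, where the 3 genes without a start drop out. With all annotated genes as background, 24.6% had a window. The share with a site ran from 15.4% (sites at or above the median score) to 35.7% (shared windows left out), beside 18.5% and 33.1% of protein-coding genes, so its side of the background changed when shared windows were left out. The number of genes with a site given by composition was 8.14 with GC alone and 7.31 with squared terms. The median best score was 6.17 against 5.99 with shared windows left out. When the gene body was counted it was 6.01 over 8 genes, against 6.00 for protein-coding genes, so the difference nearly vanished. The share of genes with a shared window was 46.2% against 27.8% in the main setting. It was 47.8% (500 bp), 50% (all annotated neighbours) and 59.3% (3 kb), against 23.6%, 39.2% and 38.2%. The divergent starts, added after the data were seen, gave 30.4% against 16.3%. Median GC content ran from 63.7% to 64.7%. Set against promoters of genes with a window, in place of all promoters, the difference in share became -7.21 percentage points for GGGCGG, which changed its side, -1.02 for TTTGGCGC and -3.28 for AAGATGGCG. That for TATAAA changed from -6.21 to 0.869. No paired analysis was possible because the tables are pooled over the libraries, and for the same reason no library could be left out and depth per window is unknown.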
